A study of Mus musculus with 45 samples.

Results

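Described here were 200 rows of the exon count tables of mouse hepatic stellate cells (HSCs) whose level ended higher than it began in each of 3 models of HSC activation: Western diet with fructose (WD), carbon tetrachloride (CCl4) and transdifferentiation in culture (IVT). The rows were selected on measured values: counts were scaled to CPM, which brings each library to the same total, L was taken as log2 of the group mean CPM plus 1, and the difference in L between the last time and time 0 was formed in each model. Of the 23999 rows, 13336 reached an L of 3 or more in at least 1 of the 13 groups, and the 200 with the highest smallest difference of the 3 were kept. The rows are called by their line in the tables, because the identifiers beside the counts did not follow them, so that no row could be given a gene name, a function or a sequence.

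The 45 libraries came from male C57BL6/J mice, for which no transgene or deletion is named, and every one was made from HSCs sorted by flow cytometry for live cells with retinoid autofluorescence. WD mice received the diet with fructose in the drinking water for 12, 16 or 24 weeks (4 libraries each), their controls at 0 weeks received chow and plain water (4 libraries), and all were killed at the same age. The diet therefore began at a later age in mice fed for less time, and its length and the age at its start cannot be told apart. Each time was read in other mice, so a rise or fall under WD compares groups. CCl4 in corn oil was given by gavage for 1 week (3 libraries), 4 weeks (4) or 8 weeks (3), and the controls at 0 weeks received corn oil over the longest course (4). For IVT, sorted HSCs of untreated mice were kept on plastic in medium with serum for 1, 4, 8 or 12 days, and the cells at day 0 had spent 2 h in suspension (3 libraries at each time). The ages of the CCl4 and IVT mice were not given in the sources used here. Cells that had lost their retinoid could not be collected by this sort in the mouse models, and the control of the culture model had itself been isolated and sorted.

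HSCs are the retinoid-storing pericytes of the liver sinusoid. After injury they lose their lipid droplets, divide, take on contractile fibres and secrete the collagens of fibrotic scar, a process known as activation that ends in a myofibroblast. Plating on stiff plastic sets off a similar change without any other liver cell present. Comparing diet, toxin and culture asks which part of the response is common to these settings.

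Library totals ran from 2318311 to 7576527 counts with a median of 5402217, so that 3 counts, taken as the floor of detection, stood at 0.396 to 1.29 CPM by library (counting error only). The identifiers were checked against RefSeq gene names, which 23655 of them matched. The rows listed as B2m, Des and Lyz2 never passed 0.214, 0.415 and 0.451 CPM in any library. These are abundant transcripts of most cells, of HSCs and of macrophages. Under 2 CPM in every library were 3 of 7 HSC markers, 2 of 3 macrophage markers and 1 of 5 markers of most cells. None of the 4 hepatocyte and 4 endothelial markers were. Rows listed as Pdgfrb and Gapdh measured 26.3 to 67.7 and 104 to 323 CPM. Because names of abundant transcripts stood beside rows near 0, the labelled cell type and the share of other cells could not be looked up by marker. In bulk libraries such as these, fewer cells of a type and less RNA per cell cannot be told apart. Replicates carried only a letter, and nothing in the labels says which mouse or culture a letter stands for, so p-values measure the spread between these libraries, which for IVT may be technical. Libraries C and D of the 16 and 24 weeks WD groups stood apart from A and B over the 200 rows. Several counts and medians that rest on these groups are therefore also given from each pair. Others rest on all 4 libraries only, such as the model of the smallest difference, how far apart the 3 differences lay and the rows higher at every step.

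The difference in L from time 0 of the same model is called the rise of a row. At the end of each model the rise of the 200 rows had a median of 3.59 under WD (from 1.82 to 7.30), 3.66 under CCl4 (from 1.88 to 8.04) and 3.26 in IVT (from 1.84 to 7.38). These differences chose the rows and carry no test. Over all 13336 rows past the floor the medians were 0.06, 0.12 and 0.32, and 4286 of those rows ended above time 0 in every model. The smallest of the 3 differences had a median of 2.48. It was the culture difference in 87 rows, the WD difference in 62 and the CCl4 difference in 51. The 3 differences of a row lay within 1 of each other in 59 rows and more than 3 apart in 34. Final rises under WD and CCl4 ranked the 200 rows alike (Spearman's rho 0.66), and those in culture did not follow either (rho 0.13 with WD and 0.12 with CCl4); these are descriptions across 200 rows chosen on the same values. The last rows taken were row 11572 (smallest difference 1.84, in culture), row 20489 (1.83, in WD) and row 8509 (1.82, in WD), and the first left out were row 5181 (1.82, in WD), row 17460 (1.82, in WD) and row 17753 (1.81, in culture), so the limit did not fall in a gap.

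**Figure D1:**
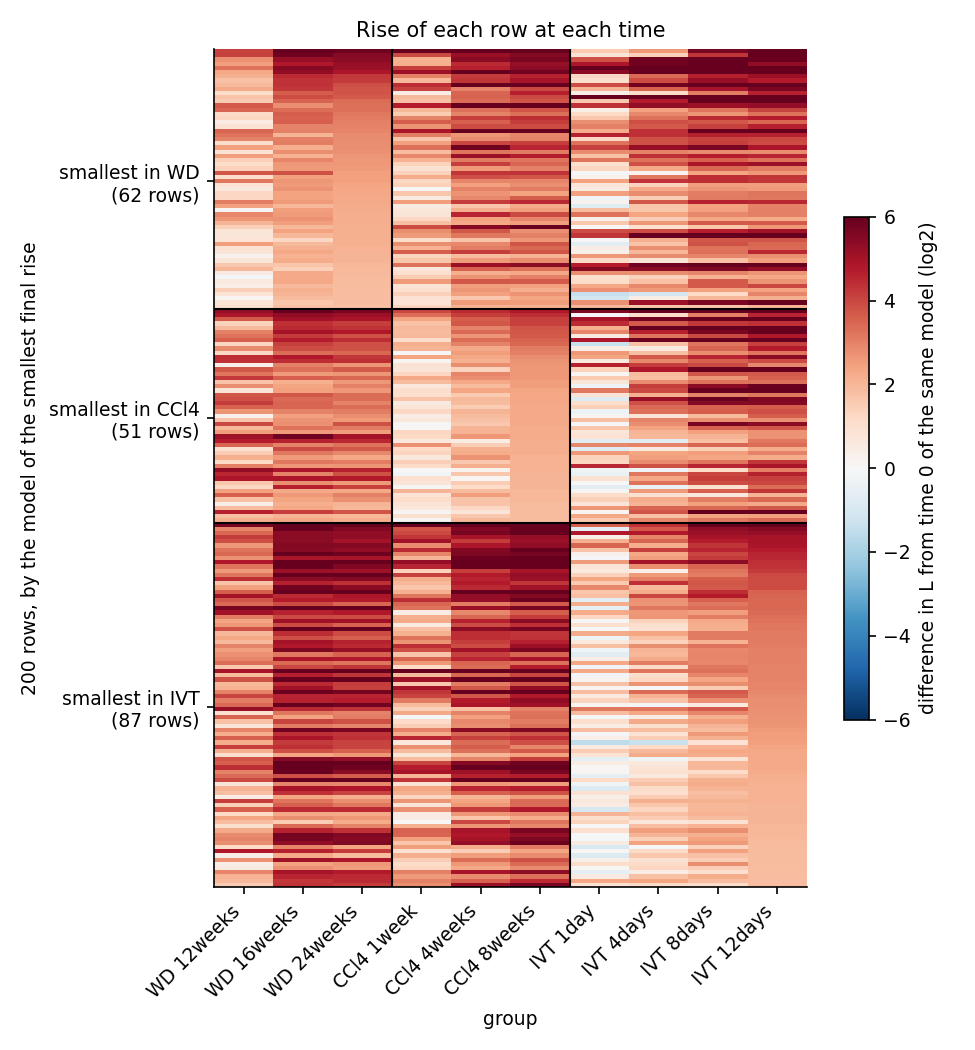
Difference in L from time 0 of the same model (color, log2 scale) for each of the 200 rows (vertical axis, grouped by the model in which the final rise was smallest and ordered by rank) at each later time (horizontal axis). Red fills nearly all cells, the first column of culture is the palest with 39 rows below time 0, and the 62, 51 and 87 rows of the 3 blocks are palest in the model that names their block.

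At time 0 many of the rows, but not all, were near the floor of detection in each of the 3 models. The highest L among the 200 rows was 6.14 in chow-fed mice, 5.76 in corn oil controls and 6.16 in suspended cells. The median L over the 200 rows was 1.5 in chow-fed mice, 1.47 in corn oil controls and 1.24 in suspended cells, and 70, 76 and 88 rows had a group mean under 1 CPM. No count at all was found in any control library for 5 rows in WD, 7 in CCl4 and 8 in IVT. At the end the median L was 5.64 in WD, 5.76 in CCl4 and 5.24 in IVT. Expressed as a share of all counts of a library, the 200 rows together took 0.106% ± 0.010 (SD, n = 4) of counts in chow-fed mice and 1.62% ± 0.68 (n = 4) after 24 weeks of WD, 0.0941% ± 0.0090 (n = 4) in corn oil controls and 1.69% ± 0.11 (n = 3) after 8 weeks of CCl4, and 0.102% ± 0.011 (n = 3) at day 0 and 1.66% ± 0.0076 (n = 3) at day 12 of culture.

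**Figure D2:**
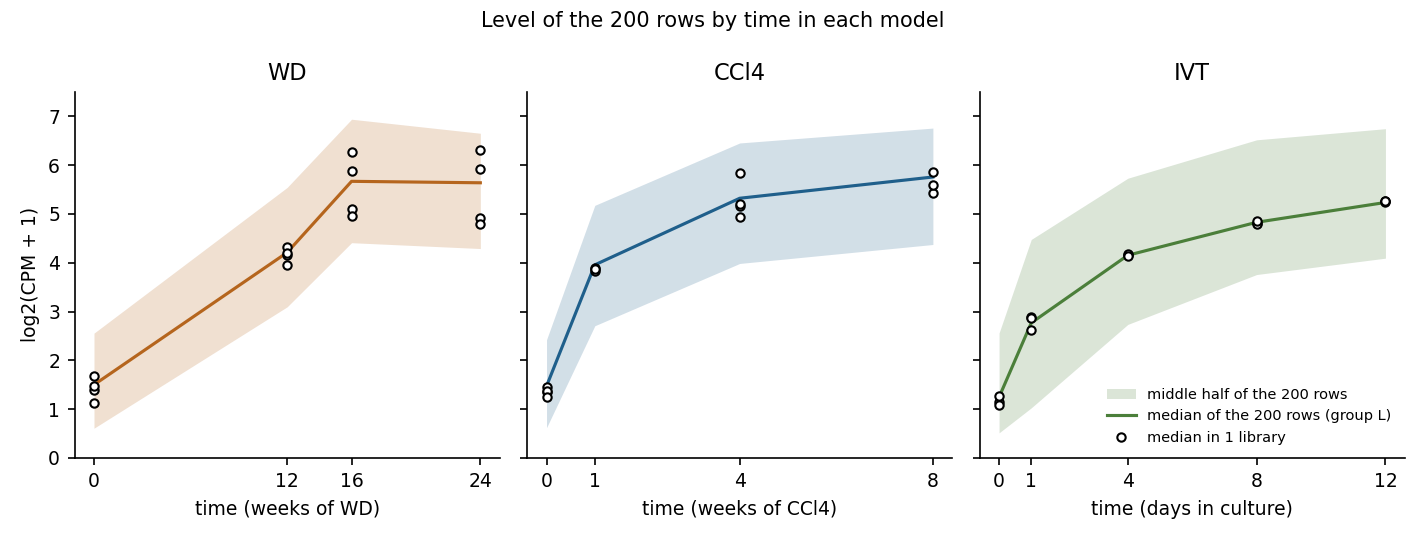
Level of the 200 rows, as log2(CPM + 1), against weeks of WD, weeks of CCl4 and days in culture. Lines show the median of the group L, bands span the lower to the upper quartile over rows, and circles show the median over rows in single libraries; the WD line is flat between 16 weeks (5.67) and 24 weeks (5.64), where the libraries fall into a higher and a lower pair, and the CCl4 and culture lines still climb at their last step.

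Under WD the levels were higher at 12 weeks, higher again at 16 weeks and about the same at 24 weeks. The median L went from 1.5 to 4.21 at 12 weeks, 5.67 at 16 weeks and 5.64 at 24 weeks. The median row had covered 59.1% of its final rise at 12 weeks (quartiles 44.3% and 93.1%) and 104% at 16 weeks. The share at 16 weeks was 109% from libraries A and B and 103% from C and D of the later groups. The level was highest at 16 weeks in 137 rows, at 12 weeks in 32 and at 24 weeks in 31, and the level of 27 rows was higher at every step than before. At 12 weeks 130 rows had covered 50% or more of the final rise, and the other 70 did so by 16 weeks. The 130 became 167 with only libraries A and B of the later groups and 109 with only C and D. Row 6414 was the one row not above time 0 at 12 weeks. It measured 12.6, 14.9, 15.3 and 11.5 CPM in chow-fed mice and 9.59, 12.8, 13.7 and 16.2 at 12 weeks, then 39.8, 31.7, 115 and 93.5 at 16 weeks and 31.1, 31.4, 65.6 and 84.01 at 24 weeks. Its first values overlapped with the controls and all later ones lay above them. Rows 23116 and 22000 followed the same course, with 4.19% and 7.42% of the final rise at 12 weeks.

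In the rows that were earliest under WD, library A of 12 weeks stood above the others. Row 19757 had 149% of its final rise at 12 weeks, with 131, 20.6, 20.2 and 18.99 CPM at 12 weeks against 2.41, 1.30, 1.79 and 1.64 at time 0 and 26.9, 13.1, 11.4 and 20.8 at 24 weeks. Library A lay far above the other 3, which were still above every control. The same library was the highest of row 6186 (151% at 12 weeks), with 40.7, 14.02, 14.6 and 5.83 CPM, and of row 4501 (142%), with 90.5, 26.4, 21.2 and 19.2 CPM. Over all 200 rows library A was the highest of the 12 weeks group in 77, B in 60, D in 55 and C in 8, against 33.2%, 18.7%, 30.9% and 17.1% of rows past the floor.

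The plateau after 16 weeks did not turn on which pair of libraries was read, but the size of the rise did. The median level over the 200 rows was 5.11 and 4.95 in libraries A and B and 6.27 and 5.87 in C and D at 16 weeks, and 4.92 and 4.79 in A and B and 5.93 and 6.31 in C and D at 24 weeks. The 2 pairs did not overlap at either time. The 200 rows took 0.984% to 1.35% of the counts in libraries A and B and 2.13% to 2.59% in C and D of these groups. Read from A and B alone, the median rise was 3.21 at 16 weeks and 2.99 at 24 weeks, and the median row had reached 73.6% at 12 weeks. The level was then highest at 16 weeks in 128 rows, at 12 weeks in 38 and at 24 weeks in 34. From C and D alone the rises were 4.07 and 3.92, and 53.7% was reached at 12 weeks. The highest level fell on 16 weeks in 123 rows, on 12 weeks in 29 and on 24 weeks in 48. The labels name no batch for these letters, and what sets the pairs apart was not tested.

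Under CCl4 the median level was higher at each time than at the one before. The median L was 1.47 at time 0, 3.96 after 1 week, 5.32 after 4 weeks and 5.76 after 8 weeks, and 139 of the 200 rows were higher at each of the 3 steps. The median row had 52.9% of its final rise after 1 week (quartiles 37.4% and 69.7%) and 90.3% after 4 weeks. The level peaked at 8 weeks in 155 rows, at 4 weeks in 39 and at 1 week in 6. A rise of 50% or more was first seen at 1 week in 112 rows, at 4 weeks in 84 and at 8 weeks in 4, and 5 rows were below the controls after 1 week.

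Row 4094, the row with the highest smallest difference of all, was one of the few that peaked after 1 week of CCl4. It stood at 1.96, 0.716, 1.06 and 0 CPM in corn oil controls, 654, 469 and 608 after 1 week, 317, 209, 211 and 226 after 4 weeks and 493, 550.4 and 482 after 8 weeks. The 3 treated groups did not overlap with the control, and the 4 weeks libraries lay below all libraries of 1 and of 8 weeks. Row 19899 had 126% of its final rise after 1 week, with 8.05, 5.16 and 10.7 CPM then and 3.61, 9.06 and 2.51 after 8 weeks, values that overlap. At the other end, row 10814 measured 5.67, 1.91, 6.96 and 4.16 CPM in controls, 5.41, 3.64 and 3.21 after 1 week, 11.6, 19.6, 9.53 and 25.2 after 4 weeks and 32.6, 16.4 and 18.6 after 8 weeks. It was no higher than its controls at the first time and did not overlap with them from 4 weeks. Row 11197 stayed at control levels after 1 week (0.396, 1.21 and 2.99 CPM against 0.436, 2.15, 3.17 and 0.694) and was highest after 4 weeks, at 39.7, 51.9, 25.1 and 46.2 CPM. It then measured 24.5, 22.9 and 22.6 CPM after 8 weeks, below all of the 4 weeks libraries.

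In culture the median level was higher at each time than at the one before. The median L was 1.24 at day 0, 2.77 at day 1, 4.15 at day 4, 4.83 at day 8 and 5.24 at day 12. The median row had 31.6% of its final rise at day 1 (quartiles 4.04% and 63.4%), 71.9% at day 4 and 95.0% at day 8. At day 1 39 rows were below time 0, and 9 still were at day 4. A share of 50% was first passed at day 1 by 66 rows, at day 4 by 90, at day 8 by 37 and at day 12 by 7. The peak fell on day 12 in 128 rows, day 8 in 56, day 4 in 11 and day 1 in 5, and 77 rows were higher at each of the 4 steps. The median rise over all 13336 rows past the floor was 0.23 at day 1 and 0.27 to 0.32 at the later days in the same units, so part of a rise in culture was common to most rows on this scale. With TMM scaling (trimmed mean of M-values, from edgeR) the median rise of the 200 rows at day 1 was 0.81, against 1.04 on plain CPM.

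Row 9285 had the deepest first-day dip. It measured 14.01, 8.18 and 12.9 CPM at day 0, 1.67, 4.53 and 3.92 at day 1, 2.72, 3.33 and 6.01 at day 4, 20.7, 21.9 and 24.05 at day 8 and 62.2, 66.6 and 76.2 at day 12. All libraries of days 1 and 4 lay below those of day 0, and all of days 8 and 12 above them. Row 22000, present at time 0 in every model, went from 50.1, 45.8 and 48.9 CPM to 22.7, 19.7 and 22.9 at day 1, 66.4, 66.1 and 63.6 at day 4, 197, 193 and 196 at day 8 and 220.5, 213 and 213 at day 12. No 2 of these groups overlapped. Row 8308 took the opposite path, with 0.801, 0.186 and 0.562 CPM at day 0, 34.7, 36.8 and 36.1 at day 1, 28.2, 25.9 and 24.8 at day 4, 24.2, 18.3 and 24.3 at day 8 and 10.8, 8.69 and 11.5 at day 12. It was at its highest on the first day, 159% of its final rise, and every later group was lower than day 1. Row 1386 was without a count in all 6 libraries of days 0 and 1, measured 0.680, 0.868 and 1.03 CPM at day 4 and reached 8.45, 8.97 and 6.76 at day 12, while in WD it had 17.7, 15.7, 17.3 and 21.5 CPM at 12 weeks already.

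The rows that were early in one model were early in another about as often as the 200 rows at large. Of the 200 rows, 27 had covered 50% of the final rise at the first time in all 3 models, 80 in 2, 67 in 1 and 26 in none. Such rows made up 65% of the 200 in WD, 56% in CCl4 and 33% in culture. WD and CCl4 shared 79 of them, 60.8% of the 130 in WD and 70.5% of the 112 in CCl4. WD and culture shared 44 (33.8% and 66.7%) and CCl4 and culture 38 (33.9% and 57.6%). With only libraries A and B of 16 and 24 weeks of WD, 95 rows were shared with CCl4, 52 with culture and 30 with both, and with only C and D the counts were 65, 34 and 20. Spearman's rho of the first rise across the 200 rows was 0.28 between WD and CCl4, -0.06 between WD and culture and 0.12 between CCl4 and culture. For the share of the final rise the values were 0.04, -0.04 and 0.10. These are descriptions over rows that share their libraries, and the first times differ (12 weeks, 1 week and 1 day), so the shares are set side by side and not compared. The 39 rows below day 0 at the first day of culture had a median of 61.1% of the final rise at 12 weeks of WD and 48.2% after 1 week of CCl4, near the 59.1% and 52.9% of all 200.

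**Figure D3:**
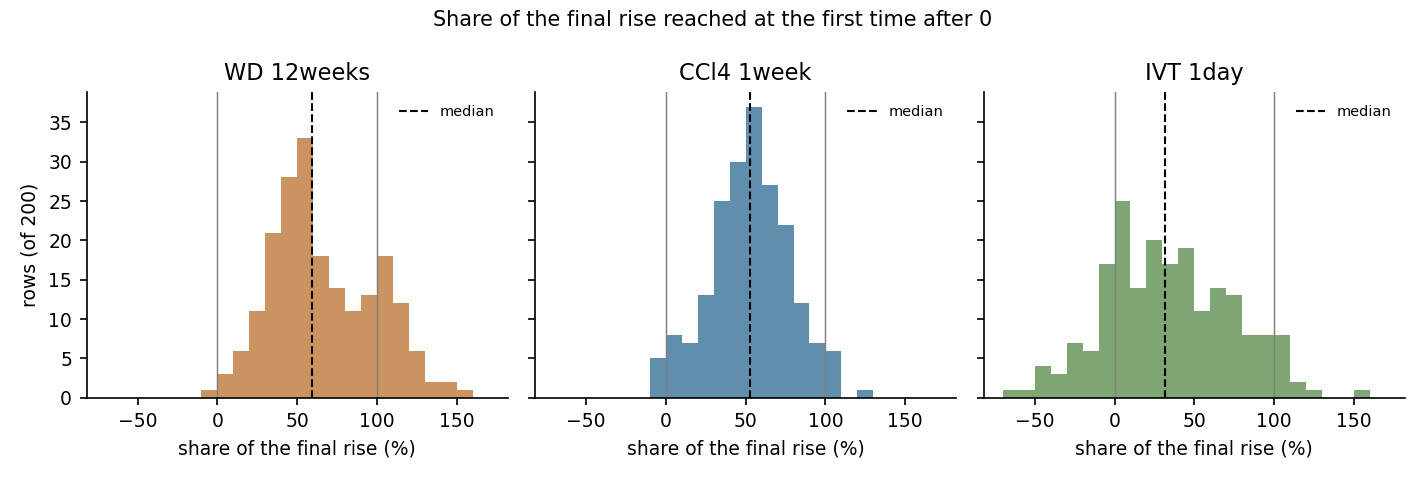
Number of the 200 rows (vertical axis) by the share of the final rise, in percent, reached at 12 weeks of WD, 1 week of CCl4 and 1 day of culture (horizontal axis). Dashed lines mark the medians (59.1%, 52.9% and 31.6%), and grey lines mark time 0 (0%) and the final level (100%); the culture histogram reaches from -62.8% to 159%, that of WD from -2.70% to 151% and that of CCl4 from -7.70% to 126%.

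For most rows every treated library lay above every control library of its model. This held for 171, 199 and 199 of the 200 rows at 12, 16 and 24 weeks of WD, against 22%, 28.4% and 26.5% of the 13336 rows past the floor. Under CCl4 it held for 170, 194 and 199 rows at 1, 4 and 8 weeks (24.6%, 29.9% and 29.1% of rows past the floor). In culture it held for 127, 186, 199 and 200 rows at days 1, 4, 8 and 12 (46.8%, 48.8%, 50.1% and 49.9%). The counts at the last times follow from how the rows were chosen, the earlier ones use the same control libraries, and nothing is read from any of them.

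The groups compared in steps between middle times were not among those whose differences chose the rows, and these steps were tested on the counts with edgeR's quasi-likelihood test over all rows and libraries of a table, with Benjamini-Hochberg adjustment over all rows tested and an adjusted p of 0.05 as the threshold. The time 0 and last libraries therefore entered the spread, the scaling and the filter. With only the compared groups fitted, 102 rows were higher from 12 to 16 weeks of WD. Under CCl4 137 were higher from 1 to 4 weeks. In culture 141 were higher from day 1 to day 4 and 166 from day 4 to day 8. Over all rows of these fits 6.45%, 22.4%, 38.8% and 28.8% were higher, in the same order. Of the 200 rows, 174 were tested from day 1 to day 4 and 197 or more in the other steps. With all libraries, all 200 rows passed the filter on low counts in each table, and all 200 also passed the floor on L through a time 0 or a last group. Because the rows were chosen to end above their start, some of the way up had to fall between these times. For each step the counts called higher or lower with all libraries are therefore given beside the shares over all rows.

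From 12 to 16 weeks of WD, 111 of the 200 rows were higher, 4 were lower and 85 did not pass the test. Over the 13510 rows tested 9.23% were higher and 3.62% lower. The median log2 fold change was 1.65 over the 200 rows (quartiles 0.32 and 2.47) and -0.10 over all rows. The smallest adjusted p-values belonged to rows 3988, 3181 and 7227. Row 3988 rose from 74.3, 97.3, 68.7 and 83.6 CPM at 12 weeks to 221, 224, 309 and 315 at 16 weeks (log2 fold change 1.67 ± 0.20 (SE), edgeR adjusted p = 0.000932). Row 3181 rose from 44.7, 77.1, 67.9 and 62.8 to 242, 214, 371 and 469 CPM (2.31 ± 0.24, edgeR adjusted p = 0.000932). In these rows the lowest library at 16 weeks was more than 2 times the highest at 12 weeks. Row 7227 rose from 111, 95.7, 78.6 and 94.4 to 406, 357, 705 and 726 CPM (2.47 ± 0.32, edgeR adjusted p = 0.00107).

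The calls of this step depended on libraries C and D of 16 weeks. Without them 20 rows were higher and 0 lower by the same edgeR test (3 lower at an unadjusted p under 0.05), and the median log2 fold change was 0.97. Over all 13749 rows of that fit 114 were higher and 1 lower. With C and D and without A and B 127 rows were higher and 7 lower, against 14.3% higher and 14.5% lower of all rows, with a median of 2.04. The log2 fold change was above 0 in 154 of the 200 rows without C and D and in 158 with all 4 libraries. Each of these fits kept 2 libraries at 16 weeks, and both were chosen after seeing the data.

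The rows that fell from 12 to 16 weeks of WD included row 10814, row 23366 and row 1933. Row 10814 fell from 149.7, 171, 72.1 and 161 CPM to 72.2, 49.95, 48.5 and 18.3 CPM (log2 fold change -1.61 ± 0.36, edgeR adjusted p = 0.00999) and stood at 98.4, 77.3, 99.4 and 67.5 CPM at 24 weeks. The 4 libraries at 16 weeks lay at about or below the lowest of 12 weeks, and all were above the 2.78, 5.67, 6.90 and 4.92 CPM of chow-fed mice. Row 1933 went from 17.7, 27.6, 10.2 and 24.5 to 11.99, 5.89, 10.3 and 3.38 CPM (-1.39 ± 0.42, edgeR adjusted p = 0.0425), with overlap between the groups. Row 23366 went from 44.8, 56.9, 26.1 and 56.5 to 30.3, 22.5, 20.02 and 18.7 CPM (-1.06 ± 0.30, edgeR adjusted p = 0.0306), and its groups overlapped too. These calls of a fall were the least stable ones: 1 of the 4 was left when library B or D of 12 weeks, or C or D of 16 weeks, was dropped.

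From 1 to 4 weeks of CCl4, 139 of the 200 rows were higher, 5 were lower and 56 did not pass the test, against 22.7% higher and 21.7% lower of 13513 rows. The median log2 fold change was 1.26 (quartiles 0.65 and 1.99) over the 200 rows and 0.03 over all rows. With column totals used instead of TMM factors, the median of all rows was 0.16. Then 149 of the 200 rows were higher and 4 lower, against 29.1% and 16.6% of all rows. Row 1896 rose most firmly, from 6.995, 5.77 and 5.56 CPM to 135, 120.4, 55.7 and 84.1 CPM (log2 fold change 3.87 ± 0.30, edgeR adjusted p = 1.26e-06). It had 3.05, 3.10, 2.32 and 4.16 CPM in controls, below every library of 1 week, and most of its way up lay between 1 and 4 weeks. Row 1386 rose from 8.84, 5.62 and 6.42 to 139, 60.00, 90.3 and 87.4 CPM (3.61 ± 0.30, edgeR adjusted p = 2.01e-06) and row 19958 from 2.51, 2.13 and 2.78 to 70.9, 31.2, 31.9 and 32.9 CPM (3.93 ± 0.35, edgeR adjusted p = 3.02e-06). The groups of all 3 rows were far apart, and library A was the highest at 4 weeks in each. Library A of 4 weeks was the highest of its group in 141 of the 200 rows and in 36.3% of rows past the floor. Without it 129 rows were higher and 6 lower, against 19.9% and 19.9% of all rows.

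The rows that fell over this step were high after 1 week. Row 4094 fell by 1.40 on the log2 scale (SE 0.21, edgeR adjusted p = 0.00014) from the values given above. Row 21147 went from 36.7, 22.6 and 32.5 CPM to 18.2, 9.23, 12.6 and 9.46 CPM (-1.45 ± 0.26, edgeR adjusted p = 0.000949) and then to 35.02, 48.3 and 35.2 CPM at 8 weeks. No count was found for it in the 4 control libraries. Row 11667 went from 45.9, 23.8 and 26.3 to 13.8, 18.02, 10.6 and 14.9 CPM (-1.29 ± 0.30, edgeR adjusted p = 0.00269). In each of these rows the 4 weeks libraries lay below all 1 week libraries and above the controls.

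From day 1 to day 4 of culture, 152 of the 200 rows were higher, 13 were lower and 35 did not pass the test, against 33.7% higher and 31.2% lower of 13655 rows. The median log2 fold change was 1.52 (quartiles 0.53 and 2.57) and that of all rows 0.01. Row 12609 had 0.152, 0 and 0 CPM at day 1 and 67.5, 68.7 and 70.2 at day 4 (edgeR adjusted p = 5.35e-15); with 1 count in all 3 libraries of day 1 its fitted fold change depends on the prior count and is not given. Row 21782 rose from 6.24, 5.24 and 4.22 to 168, 161 and 173 CPM (log2 fold change 5.01 ± 0.11, edgeR adjusted p = 8.26e-16). Row 5803 rose from 70.2, 74.8 and 79.5 to 295, 289.5 and 311 CPM (2.01 ± 0.06, edgeR adjusted p = 6.75e-14). In none of these 3 rows did the groups overlap.

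Among the 13 rows that fell from day 1 to day 4, rows 1896, 13533 and 22882 had been induced on the first day. Row 13533 measured 10.2, 7.63 and 10.1 CPM at day 0, 233, 237 and 232 at day 1, 147, 142 and 142 at day 4 (log2 fold change -0.69 ± 0.06, edgeR adjusted p = 3.45e-08) and 249, 232 and 250.1 at day 8. Row 22882 measured 2.60, 2.60 and 2.53, then 74.4, 84.2 and 74.5, then 46.4, 44.1 and 42.4 CPM (-0.80 ± 0.07, edgeR adjusted p = 5.02e-08). Row 1896, which rose from 1 to 4 weeks of CCl4, went the other way in culture, from 21.00, 21.7 and 20.7 to 10.5, 11.1 and 11.1 CPM (-0.94 ± 0.12, edgeR adjusted p = 2.81e-06). All 3 stayed well above day 0.

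From day 4 to day 8 of culture, 148 rows were higher, 4 were lower and 48 did not pass the test, against 17.7% higher and 14.2% lower of the 13655 rows. The steps were smaller, with a median log2 fold change of 0.80 (quartiles 0.33 and 1.53) over the 200 rows and of about 0 over all rows. Row 4094 rose from 34.4, 34.7 and 32.4 CPM to 184, 191 and 185 CPM (2.47 ± 0.08, edgeR adjusted p = 6.19e-13), row 1933 from 13.5, 14.5 and 12.6 to 109, 108 and 107 CPM (3.00 ± 0.11, edgeR adjusted p = 2.79e-12) and row 22000 with 1.58 ± 0.06 (edgeR adjusted p = 7.61e-12). The 3 rows with the firmest fall were row 467, from 187, 175 and 179.6 to 114, 109 and 117 CPM (-0.67 ± 0.10, edgeR adjusted p = 4.69e-05), row 5803 (-0.36 ± 0.06, edgeR adjusted p = 0.000157) and row 4500 (-0.36 ± 0.07, edgeR adjusted p = 0.000822). Each of them was above day 0 in every library at day 8. Days 4 and 8 share the day 4 libraries with the step before, so the 2 culture steps are not independent.

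**Figure D4:**
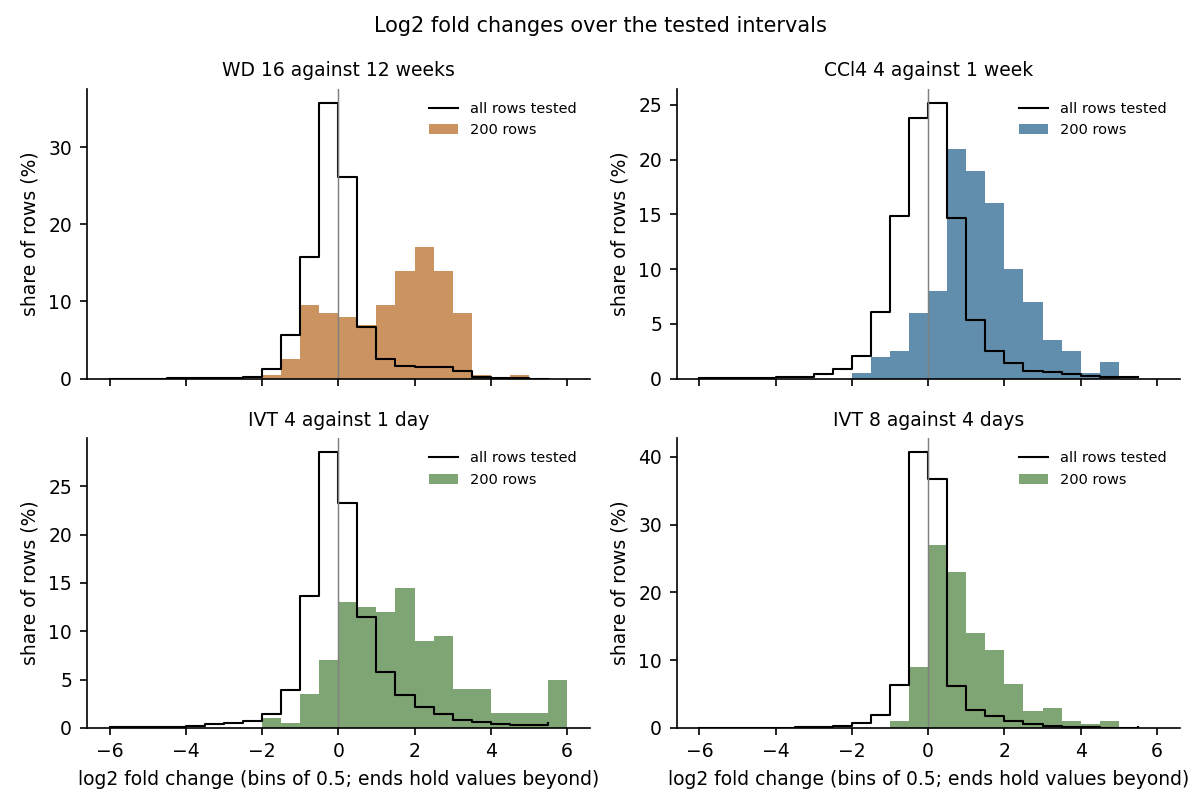
Distribution of log2 fold changes (horizontal axis, bins of 0.5, the end bins hold values beyond) over the 200 rows (filled bars) and over all rows tested (black line) for the 4 tested steps; the vertical axis is the share of rows in percent. The bars lie to the right of the line in every panel, with medians of 1.65, 1.26, 1.52 and 0.80 against -0.10, 0.03, 0.01 and about 0.

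Over 1 tested step of each model (12 to 16 weeks of WD, 1 to 4 weeks of CCl4 and day 1 to day 4 of culture, which share no library), 64 of the 200 rows were called higher in all 3, 83 in 2, 44 in 1 and 9 in none. Of the 12236 rows tested in all 3 tables, 175, or 1.43%, were called higher in all 3, so that the 64 rows are 32% of the 200 and 36.6% of the 175. Without libraries C and D of 16 weeks of WD the count in all 3 was 14, and without A and B it was 72. The matching counts over all rows were not taken. In the WD step 114 of 13749 rows were called higher without C and D. Without A and B 14.3% of all rows were, against 9.23% with all libraries. The 14 and the 72 are therefore not read as a property of the 200 rows. Row 17134, number 3 of the 200 by its smallest difference, was among the 64 rows. It rose from 10.3, 16.9, 7.13 and 16.5 to 64.7, 44.6, 175 and 169 CPM under WD (log2 fold change 3.11 ± 0.48, edgeR adjusted p = 0.00154) and from 23.5, 13.7 and 13.5 to 112, 44.2, 37.5 and 47.8 CPM under CCl4 (1.69 ± 0.34, edgeR adjusted p = 0.00121). In culture it had 1 count in the 3 libraries of day 1 and 19.6, 18.2 and 19.2 CPM at day 4.

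Timing under WD was also described by the model that limited a row. The 51 rows whose rise was smallest under CCl4 had a median of 93.1% of their WD rise at 12 weeks, and 13 of them were called higher from 12 to 16 weeks. The corresponding values were 49.2% and 35 of 62 for rows limited by WD, and 56.0% and 63 of 87 for rows limited by culture. Without libraries C and D of 16 weeks the 20 rows called higher were 3 of those limited by WD and 17 of those limited by culture, and without A and B the counts were 16, 40 and 71. The median shares at 12 weeks were 108%, 66.8% and 70.0% from libraries A and B of the later groups and 85.3%, 42.8% and 50.9% from C and D, in the same order. In the CCl4 step 24 of 51, 47 of 62 and 68 of 87 rows were called higher, in the same order, and in the step from day 1 to day 4 of culture 38 of 51, 48 of 62 and 66 of 87. These classes rest on the values that chose the rows and were not tested against each other.

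The 10 rows with the highest smallest difference (4.93 to 7.21) show how differently the same end was reached. Row 4094 measured 0.926, 7.30, 3.32 and 0.911 CPM in chow-fed mice, 118, 321, 178 and 194 at 12 weeks, 466, 605, 1012 and 1049 at 16 weeks and 401, 436, 905 and 838 at 24 weeks of WD, and 1.20, 0.744 and 0.281, 17.5, 18.97 and 21.3, 34.4, 34.7 and 32.4, 184, 191 and 185 and 261, 258 and 254 CPM at days 0, 1, 4, 8 and 12 of culture. In culture its widest gaps lay before day 1 and between days 4 and 8, and under WD the 12 weeks libraries did not overlap with either neighbour. Row 10719, second in rank, rose late in culture, from 13.5, 17.2 and 15.4 CPM at day 4 to 146, 136 and 132 at day 8 (log2 fold change 3.17 ± 0.17, edgeR adjusted p = 2.75e-10), but had 169, 129 and 265 CPM after 1 week of CCl4 against 209, 456 and 215 after 8 weeks, which overlap. Row 12127 was later still: it had 22.1% of its culture rise at day 4 and 65.6% at day 8, with 20.8, 20.6 and 21.4 CPM at day 8 and 105, 94.7 and 109 at day 12.

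Rows 20993, 1525 and 4500 were early in culture instead, with 91.2%, 91.1% and 92.7% of the final rise at day 1. Row 20993 went from 0.801, 0.558 and 0.562 CPM at day 0 to 46.3, 43.2 and 44.5 at day 1 and 59.3, 60.2 and 66.5 at day 12. Row 1525 went from 0.200, 0.186 and 0.281 CPM to 36.2, 34.7 and 32.7 at day 1, 83.3, 81.5 and 83.8 at day 8 and 45.1, 50.4 and 49.6 at day 12, so that day 12 lay between days 1 and 8. In the mouse models the same row had 5.81, 4.10 and 5.13 CPM after 1 week and 54.3, 52.2 and 43.2 after 8 weeks of CCl4 (41.3% of the final rise at 1 week), and 4.63, 7.83, 6.96 and 9.99 CPM at 12 weeks and 15.6, 21.97, 83.8 and 102 at 24 weeks of WD (47.1%). Row 2217, without a count in the 3 libraries of day 0, had 12.9, 14.6 and 11.9 CPM at day 1 and 56.1, 52.8 and 54.1 at day 4, the latter close to the 57.9, 54.97 and 59.9 CPM of day 12. Of the other 2 rows, row 7175 was still at its day 0 level at day 1 (1.52, 1.98 and 3.17 against 1.60, 1.30 and 1.41 CPM) and reached 72.7, 74.3 and 73.3 CPM at day 8. Row 3618 had 97.3% of its CCl4 rise after 1 week, with 64.3, 37.04 and 46.6 CPM, then 21.8, 37.1, 20.1 and 30.4 after 4 weeks (-0.98 ± 0.37, edgeR adjusted p = 0.0428) and 95.3, 32.8 and 35.2 after 8 weeks.

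**Figure D5:**
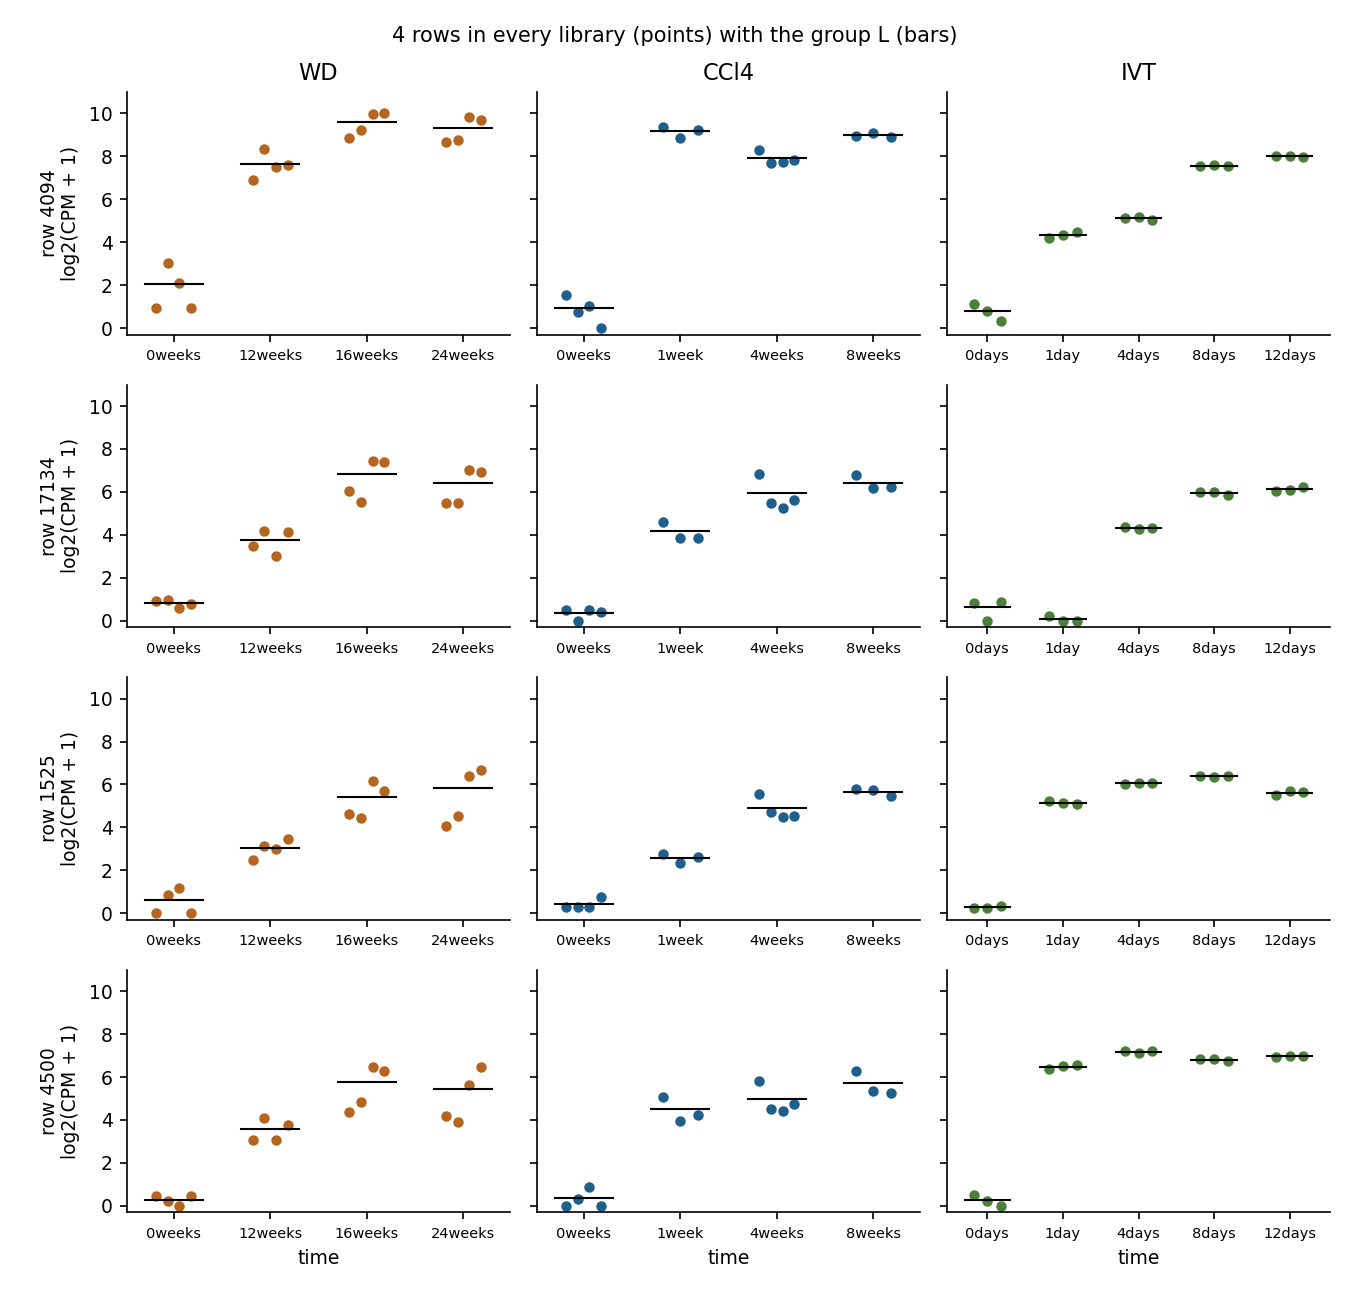
Level of the rows ranked 1, 3, 7 and 8 by their smallest difference (rows 4094, 17134, 1525 and 4500), as log2(CPM + 1) (vertical axis), in every library (points) with the group L (bars) by time in each model (horizontal axis). Row 4094 is highest after 1 week and lowest of the treated groups after 4 weeks of CCl4, row 17134 shows no rise at day 1 of culture, rows 1525 and 4500 are near their final culture level at day 1, and the points of 16 and 24 weeks of WD fall into pairs.

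Row 4094 also had the highest WD and CCl4 rises of all (7.30 and 8.04), but other large rises stood in rows with uneven ones. Row 19268 had the highest culture rise of all (7.38), from no count in the 3 libraries of day 0 to 157, 164 and 176 CPM at day 12, with a CCl4 rise of 1.89. After 8 weeks of CCl4 it measured 7.04, 6.04 and 5.02 CPM against 1.74, 0.716, 0.422 and 0.694 in controls. Row 15216 had a rise of 7.26 under CCl4, from at most 0.211 CPM in controls to 154, 161 and 165 CPM after 8 weeks, and of 3.86 under WD. Row 18261 had a rise of 6.88 under WD, from 2.78, 1.30, 2.81 and 0.547 to 233, 207, 454 and 451 CPM, and of 4.39 in culture, where it peaked at 45.4, 43.1 and 43.7 CPM at day 8 and measured 22.3, 20.9 and 22.4 at day 12. Row 9672 had a rise of 4.62 in culture, was at 1116, 1049 and 1105 CPM after 1 day against 40.8, 36.1 and 50.3 at day 0, and stayed between 896 and 1130.2 CPM through day 12. In the mouse models it never passed 38.0 CPM.

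The spread between libraries differed by model. The median biological coefficient of variation of the 200 rows in the edgeR fits was 0.434 under WD, 0.275 under CCl4 and 0.0606 in culture, against 0.243, 0.191 and 0.0713 over all rows tested. A step of a given size was therefore called more readily in culture than under WD. In simulated counts with the spread of the data, folds of 2 and 4 were recovered in 40% and 83% of changed rows in the WD step, 58.2% and 95% in the CCl4 step, 76.8% and 91.9% between days 1 and 4 and 82% and 93% between days 4 and 8 of culture. Of the calls made there, 6.82%, 8.98%, 5.11% and 4.89% were rows that had not been changed, in the same order. The changed rows were drawn at random from all rows tested, whose spread was lower than that of the 200 rows under WD and CCl4. Libraries were drawn independently, without the separation of C and D from A and B. Recovery and false calls among the 200 rows were therefore not measured.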

How the data were processed

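RNA of sorted HSCs was polyA-selected, and libraries were sequenced on an Illumina HiSeq instrument. Per the labels and the study's methods, the authors used STAR for alignment (mm10), and HOMER summed reads over exons regardless of strand, condensed to a single transcript for each gene and capped at 3 reads per position, which can hold down the values of short, abundant rows. The deposited values are raw counts per row in 3 tables with the same 23999 rows, joined here by line. Versions of the authors' tools are not given in the sources used here.

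Counts were scaled to CPM on column sums for levels (pseudocount 1). Steps between middle times were tested with edgeR 4.0.16 (glmQLFit and glmQLFTest, TMM, filterByExpr, all libraries of 1 table in a fit, group as the only term) in R 4.3.3, with Benjamini-Hochberg adjustment over all rows tested. Fold changes are on the log2 scale, and standard errors are the fold change over the root of the F statistic. The test was tried on simulated counts with 200 changed rows drawn at random from all rows tested. DESeq2 1.42.0, the edgeR exact test, other scalings, filters and left-out libraries were alternatives. Between the groups of the tested steps, same-letter libraries did not deviate together, with correlations from -0.38 to 0.22 under WD. The letters were therefore not used as pairs. The last WD group, where C and D also stood apart from A and B, was not in this check. The members, lists and tests were chosen with earlier results of these data known. Rows were named by rule: the 10 with the highest smallest rise, the 3 highest rises of each model, the 3 highest and lowest shares at each first time, the 3 firmest calls in each direction of each step, and 3 rows on each side of the limit.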

Additional observations from a re-analysis of the deposited data

Results flagged for a closer look

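Among the named rows and the totals over the 200 rows, 34 of 308 values in groups of 4 libraries had 1 library far from the others, judged by the gap to its nearest neighbour divided by the whole range of the group. Chance alone gives such a gap in about 1 in 20 groups, and rows of 1 library are not independent of each other. Over all rows past the floor the share was 8.12% in the 4 weeks CCl4 group and 11.5% in the 12 weeks WD group, against 19% and 15.1% of the 200 rows. What sets these libraries apart was not tested.

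Library A of 4 weeks of CCl4 was the high one in 14 of the 34. The ratio was 0.981 for row 6414, 0.958 for row 3988, 0.957 for row 19958, 0.909 for row 17487, 0.899 for row 23116, 0.889 for row 12127 and 0.882 for row 20993. It was 0.861 for rows 17134, 2217 and 11572, 0.854 for row 4500, 0.852 for row 1525, 0.850 for row 4094 and 0.831 for row 3181. Library C of the same group was high for row 15216 (0.885) and low for row 5803 (0.890).

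Library A of 12 weeks of WD was the high one for row 19757 (0.986), row 19899 (0.952), row 5803 (0.944), row 19268 (0.941), row 4501 (0.899), row 17753 (0.887, a row just outside the limit), row 11624 (0.875) and row 13533 (0.847). In the same group library B was low for row 11197 (0.859) and library C for row 22882 (0.834).

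At 24 weeks of WD library D was apart for row 19268 (0.859) and row 17753 (0.840). Among chow-fed mice library C was high for row 3181 (0.893) and row 20993 (0.866). Among corn oil controls library C was high for row 467 (0.925) and row 9672 (0.834), library A for row 6186 (0.845) and library D for row 9285 (0.832).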

How the results depend on the processing

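Of 161 values under other settings 130 stayed within 1.5 times of a count, or within 1 SD of a level, and 31 moved. Many of these values are counts, which have no direction. The limit is wide: a choice that returned 134 of the 200 rows was within it. The counts of rows called higher stayed within 1.5 times in each step under library totals, the edgeR exact test, DESeq2, no filter, only the compared groups and the replicate block. The exception, chosen after seeing the data, was the WD step without libraries C and D of 16 weeks (20 higher and 0 lower). Without libraries A and B, 7 rows were lower there, against 14.5% of all rows.

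Rows called lower were few and less stable. In the WD step (4 rows) the count was 2 with library totals, 2 with no filter and 1 with only the compared groups. Over all rows 2.76%, 1.60% and 0.791% were lower, in the same order. The count ran from 1 to 6 as single libraries were left out. In the CCl4 step (5 rows) leaving out single libraries gave 3 to 6. Between days 4 and 8 of culture (4 rows) only the compared groups gave 10, while the share of all rows called lower went from 14.2% to 28.5%. The cause was not tested. With the replicate letter as a replicate block 111, 145, 151 and 146 rows were higher in the 4 steps and 4, 5, 12 and 5 lower. Over all rows 10.0%, 20.2%, 33.3% and 17.2% were then higher and 5.53%, 19.6%, 31.0% and 13.7% lower. Between the groups of these steps the letters did not pair the libraries: 1, 1, 2 and 2 libraries correlated best with their own letter.

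The size of a rise depends on the pseudocount because many rows start near 0. With 0.1 in place of 1 the median rise over libraries was 3.08 and 4.50 at 12 and 16 weeks of WD, 2.48 and 3.97 at 1 and 4 weeks of CCl4 and 1.56, 3.19 and 4.01 at days 1, 4 and 8 of culture. With 5 the values were 1.38, 2.49, 1.13, 2.21, 0.547, 1.49 and 2.12, in the same order, against 2.30, 3.65, 1.89, 3.19, 1.04, 2.38 and 3.14. On TMM-scaled CPM the culture values were 0.812, 2.21 and 2.92. Choosing the rows again with a pseudocount of 0.1 or 5 returned 134 or 149 of the 200, and the other choices returned 180 to 199. A floor of 3 counts in a library stands at 0.396 to 1.29 CPM, so rises that start from 0 are limited by depth.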
